A study of Mus musculus with 6 samples.

Results

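The Dectin and Clec4 cluster receptors are C-type lectins, cell surface proteins with which myeloid cells read sugars and lipids on microbes and on damaged or dying cells. The 10 genes Clec4a1, Clec4a2, Clec4a3, Clec4b1, Clec4d, Clec4e, Clec4n, Clec7a, Clec10a and Clec12a were taken by name from a table of 23946 genes, and all 10 were in it. Each had an FPKM (fragments mapped to a gene, divided by transcript length and by library size) of at least 1 in at least 1 library, which was also the rule for calling a gene expressed, and 13064 genes met it. Clec4d, at 0.962 in naive and 0.257 in 7 d mesenteric macrophages, was the exception to a level of at least 1 in every library.

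The data came from macrophages sorted as CD45+CD11b+F4/80+ cells from the omentum (OM) and the mesentery (MY) of wild-type C57BL/6 mice, described in the methods of the study as young adult females. The omentum is the fatty apron of the abdomen and an early site of ovarian cancer spread, and the mesentery is the fat that holds the gut. Naive mice are labelled normal and received no cancer cells, and the others were taken 24 h or 7 d after intraperitoneal injection of ID8, an ovarian cancer cell line derived from C57BL/6 mice. One library was analysed per tissue and time, 6 in all, and the design text describes 9 mice processed in groups of 3, without saying which mice went into which library. The study states that 3 omenta were pooled as 1 sample and gives an n of 3 for the sequencing. No injected control without cancer cells was analysed here, so the cells and the act of injection cannot be told apart. No condition was replicated among these 6 libraries, so a difference between 2 libraries has no error and no p-value. A test was made only of the tissue difference over the 3 times. Values are compared as ratios of FPKM or as differences in log2(FPKM + 1), called log2 differences, and genes at least 2-fold apart on the second scale were counted.

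Dectin-1, encoded by Clec7a, binds beta-glucan and signals through a motif in its own tail to the kinase Syk. Dectin-2 (Clec4n), Mincle (Clec4e), MCL (Clec4d) and the product of Clec4b1 have short tails and signal through the adaptor Fcer1g, again to Syk, which leads by way of Card9 to cytokine genes. DCIR (Clec4a2) and MICL (Clec12a) carry inhibitory motifs that recruit phosphatases, and Clec10a encodes MGL1, which binds galactose-type sugars. Macrophages share most of these receptors with monocytes, dendritic cells and neutrophils.

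In the mouse genome (NCBI37/mm9), 9 of the 10 genes lie on chromosome 6. Clec4a1, Clec4a3, Clec4b1, Clec4a2, Clec4n, Clec4d and Clec4e stand in that order in the Clec4 cluster, a stretch of 368 kb at chr6:122871866-123239889 that also holds Clec4a4 and Clec4b2. Clec12a and Clec7a lie 6053 kb further on, in the Dectin-1 cluster at chr6:129292709-129457183, with Clec12b, Clec1a, Clec1b, Clec9a and Olr1 between or beside them. Clec10a is on chromosome 11, at chr11:69980125-69984336, next to its near copy Mgl2 at chr11:69943831-69951052. No other annotated gene overlapped any of the 10. Of all 75-base windows in its longest coding transcript, Clec10a shared 10.2% with Mgl2, Clec4a2 shared 4.03% with Clec4a4 or Clec4b1, and Clec4b1 shared 1.19% with Clec4a2. A read within such a window does not by itself tell the genes apart. The levels of these 3 genes are less certain for it, by an amount that was not measured. The other 7 shared no such window with the annotated coding transcripts of any other gene.

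The 250 bases before the transcription start are given for 4 receptors, in the GRCm38.p6 build of RefSeq, which is not the build of the FPKM table. They are shown because Clec4b1 had the widest difference between the tissues, Clec4d and Clec4e are neighbours that face each other and encode partner proteins, and Clec7a encodes Dectin-1. Capitals mark GAGGAA, the core bound by the myeloid factor PU.1, or TTCCTC, the same core on the other strand. The windows are chr6:123049712-123049961 on the plus strand for Clec4b1, chr6:123261857-123262106 on the plus strand for Clec4d, chr6:123289872-123290121 on the minus strand for Clec4e, and chr6:129472780-129473029 on the minus strand for Clec7a.
Clec4b1: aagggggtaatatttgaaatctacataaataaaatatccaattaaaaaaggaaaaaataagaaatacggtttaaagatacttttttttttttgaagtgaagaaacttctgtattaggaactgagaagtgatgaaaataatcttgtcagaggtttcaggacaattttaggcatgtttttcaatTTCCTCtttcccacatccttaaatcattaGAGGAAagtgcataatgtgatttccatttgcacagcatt
Clec4d: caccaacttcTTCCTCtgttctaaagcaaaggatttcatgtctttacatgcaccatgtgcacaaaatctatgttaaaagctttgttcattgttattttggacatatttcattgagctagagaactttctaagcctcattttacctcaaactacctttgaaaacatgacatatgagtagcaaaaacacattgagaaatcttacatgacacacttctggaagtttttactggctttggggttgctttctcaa
Clec4e: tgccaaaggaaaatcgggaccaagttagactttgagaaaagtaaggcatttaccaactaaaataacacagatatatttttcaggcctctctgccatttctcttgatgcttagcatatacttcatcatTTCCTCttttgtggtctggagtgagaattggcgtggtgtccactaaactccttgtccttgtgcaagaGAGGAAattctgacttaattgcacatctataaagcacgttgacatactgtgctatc
Clec7a: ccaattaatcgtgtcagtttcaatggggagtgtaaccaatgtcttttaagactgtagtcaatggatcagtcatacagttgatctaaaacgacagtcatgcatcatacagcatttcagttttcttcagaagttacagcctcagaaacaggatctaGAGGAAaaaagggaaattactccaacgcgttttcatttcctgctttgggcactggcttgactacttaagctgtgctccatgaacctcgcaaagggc
RefSeq windows were given for 8 of the 10 genes and none for Clec4n and Clec10a. GAGGAA, searched on both strands, was present for 7 of the 8, Clec4a2 being without it. By window it was in 8 of 10, with overlapping windows of Clec7a among them, against 23.3% of 32851 mouse promoter windows of the same length. The C/EBP letters TTNNGNAAT were found for Clec12a, Clec4a2 and Clec4d (10.2% of all windows) and the AP-1 letters TGANTCA for Clec12a (6.75%), each on either strand. A match is only a match of letters.

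The 3 genes of the sort were present in every library. Ptprc, which encodes CD45, ranged from 105.8 to 208.3 FPKM, Itgam, which encodes CD11b, from 27.8 to 150.9, and Adgre1, listed under its older symbol Emr1 and encoding F4/80, from 20.5 to 135.0. The 24 h omental library stood apart: the summed FPKM of 8 macrophage markers (Adgre1, Csf1r, Cd68, Mertk, Fcgr1, C1qa, C1qb and C1qc) was 12837 in it and between 1226 and 3313 in the other 5. Markers of other cells were present too. The sum over 10 neutrophil markers in the table was 7555 to 19873 FPKM in the omental and 243.2 to 899.9 in the mesenteric libraries, that over 7 monocyte markers 1593 to 2157 and 382.0 to 480.4, and that over 5 mesothelial markers 63.0 to 740.8 and at most 0.439. By gene, 8, 9 and 8 of the 10 neutrophil markers were at least 2-fold higher in the omentum in naive mice, at 24 h and at 7 d, and 0 lower. The omental and mesenteric values of Cxcr2 and of Csf3r overlapped. Of the 7 monocyte markers 4, 5 and 6 were at least 2-fold higher in the omentum in naive mice, at 24 h and at 7 d. At these times 0, 1 and 0 of the monocyte markers were lower, Ly6c1 at 24 h. Over all expressed genes 8.18%, 13.9% and 14.1% were higher and 8.05%, 10.2% and 4.99% lower. T cell (4 genes, 22.2 to 84.9 against 353.9 to 774.3 FPKM) and natural killer cell markers (4 genes, 28.6 to 305.1 against 765.0 to 1489) were lower in every omental library, and 7 dendritic cell markers summed to 215.1 to 434.2 and 658.0 to 979.5. B cell (4 genes, 902.7 to 3958 against 521.6 to 1532 FPKM) and fibroblast markers (5 genes, 219.7 to 1179 against 1.92 to 2.88) spanned wide ranges, while mast cell (5 genes, 4.21 to 54.0) and eosinophil markers (4 genes, 3.49 to 20.7) were low, with Epx listed at 0 in 5 libraries and Cpa3 in the 24 h omental one. In such bulk libraries fewer cells of a type and less RNA per cell cannot be told apart, and the part of these cells in the values that follow was not tested.

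Summed over the 10 genes, lectin receptor RNA was higher in the omental than in the mesenteric library at each time. The summed FPKM of the 10 genes was 431.0 in naive, 1085 in 24 h and 357.7 in 7 d omental macrophages, and 116.6, 194.5 and 106.5 in the mesenteric ones. In naive mice 9 of the 10 were at least 2-fold higher in the omentum and 1, Clec4n, at least 2-fold lower, where 16.2% of all expressed genes were at least 2-fold apart, 8.18% higher and 8.05% lower. At 24 h all 10 were higher (24.1% of expressed genes apart, 13.9% higher), and at 7 d 9 were higher and 0 lower (19.1% apart, 14.1% higher and 4.99% lower). Rescaled to the macrophage markers described above, 4 of the 10 were at least 2-fold higher at 24 h and Clec4n was lower, at -0.65. The median log2 difference of the 10 was 1.77, 2.57 and 2.01 at the 3 times, beside 0.01, 0.00 and -0.01 for all expressed genes.

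**Figure D1:**
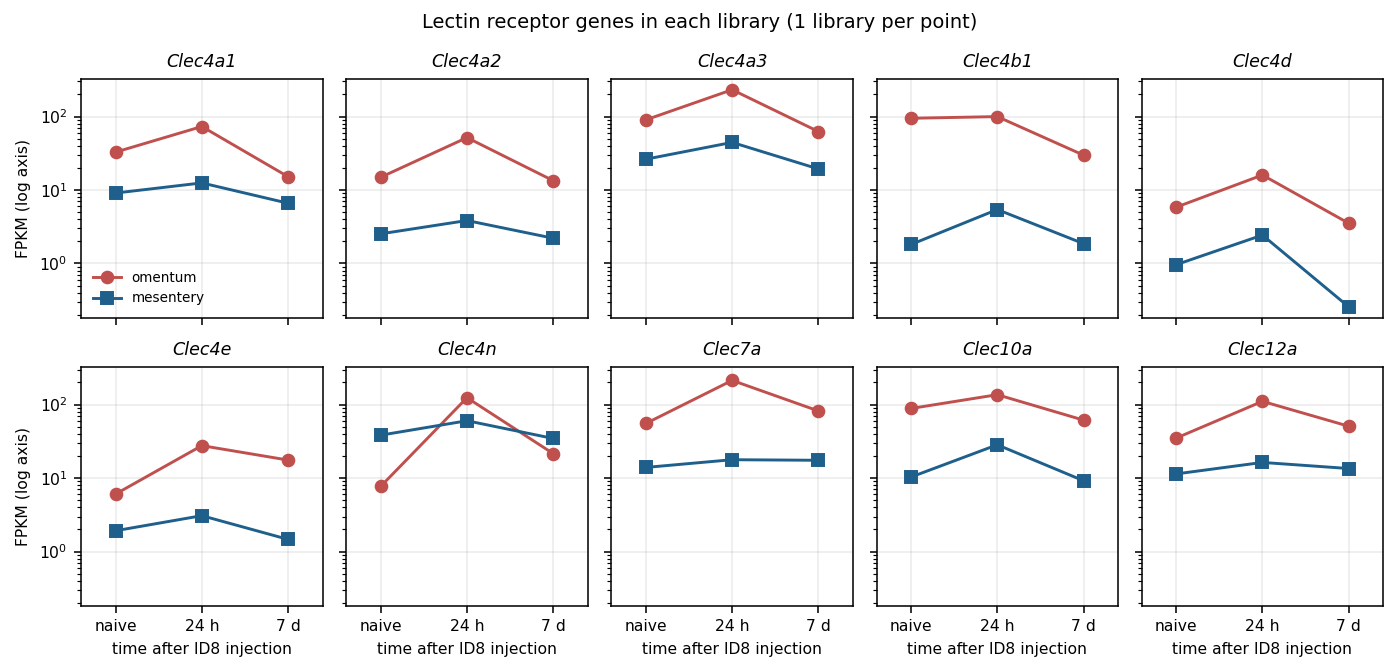
FPKM of the 10 lectin receptor genes on a log axis in omental (red circles) and mesenteric (blue squares) macrophages, for naive mice and 24 h and 7 d after ID8 injection; each point is 1 library, with no error bar. Every omental point lies above every mesenteric point of the same gene in 9 panels; in the Clec4n panel the curves cross, from 7.72 against 38.4 FPKM in naive mice to 124.2 against 60.3 at 24 h.

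The 3 omental values lay above the 3 mesenteric values for 9 of the 10 genes, an order found for 16.7% of all expressed genes, and below them for 0 of the 10 (17.7%). For 5 genes (Clec4a2, Clec4b1, Clec7a, Clec10a and Clec12a) the lowest omental value was also at least 2-fold above the highest mesenteric value, as for 2.73% of expressed genes, while 0 of the 10 were so far below (2.12%). The narrowest such gap, a log2 difference of 0.26, was that of Clec4a1. The libraries of a tissue are different conditions and not replicates, so these counts describe the 6 libraries only. A linear model with tissue and time as additive terms, fitted to all expressed genes with limma and chosen after seeing the data, takes the departure of the 3 times from a common tissue difference as its error. In it 9 of the 10 genes had a higher omental level past a Benjamini-Hochberg adjusted p of 0.05, against 10.1% of all expressed genes in either direction. The fitted log2 difference was 2.61 ± 0.19 (SE) for Clec10a (limma adjusted p = 0.00469), 4.16 ± 0.33 for Clec4b1 (0.00574) and 1.76 ± 0.28 for Clec4a1 (0.0246), and -0.60 ± 0.58 for Clec4n (0.530). Rescaled to the macrophage markers, 4 genes (Clec4a2, Clec4b1, Clec4e and Clec10a) passed, against 7.82% of expressed genes. That fit had 26128 degrees of freedom, against 5.29 in the main one, so its error was one pooled over genes. The counts of 9 and 4 thus rest on unlike errors. The model does not show what replicate animals would.

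Dectin-2 did not share this order. Clec4n (chr6:123179861-123197039) was at 7.72 FPKM in naive, 124.2 in 24 h and 21.5 in 7 d omental macrophages, and at 38.4, 60.3 and 34.6 in the mesenteric ones. The naive and 7 d omental values were thus below all 3 mesenteric values and the 24 h omental value above them. The log2 difference between the tissues was -2.18 in naive mice, 1.03 at 24 h and -0.66 at 7 d. Rescaled to the macrophage markers it was -2.74, -0.65 and -0.51, and all omental values lay below all mesenteric ones. Among expressed genes in the same library, Clec4n stood at the 45.6th, 93.2nd and 68.5th percentile in the omentum and at the 80.8th, 87.4th and 78.0th in the mesentery, a measure that does not depend on scaling between libraries. It was the most abundant of the 10 in every mesenteric library, with 31.0% to 32.9% of their summed FPKM, and contributed 1.79%, 11.4% and 6.02% in naive, 24 h and 7 d omental macrophages.

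Clec4b1 (chr6:122999980-123021573), which encodes an activating receptor of the DCAR type and whose promoter letters are printed above, was at the other extreme. It was at 94.6 FPKM in naive, 99.8 in 24 h and 29.8 in 7 d omental macrophages, and at 1.81, 5.42 and 1.86 in the mesenteric ones. It was the most abundant of the 10 in naive omental macrophages and the second lowest in naive mesenteric ones. The ratio of the tissues was 52.2, 18.4 and 16.0 at the 3 times, and the log2 differences were 5.09, 3.97 and 3.43. The mesenteric values rest on few fragments, roughly 43, 149 and 45 as estimated from the step between low FPKM values. Clec4b2, a close relative between Clec4a2 and Clec4n, was below 1 FPKM in every library.

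The neighbours Clec4d and Clec4e encode MCL and Mincle, which pair on the cell surface. Clec4d (chr6:123212125-123225286), the least abundant of the 10 in each library, was at 5.83, 16.0 and 3.52 FPKM in naive, 24 h and 7 d omental macrophages and at 0.962, 2.43 and 0.257 in the mesenteric ones, the last resting on roughly 13 fragments. Clec4e (chr6:123231807-123239889) was at 6.06, 27.6 and 17.6 FPKM in the omentum and at 1.92, 3.08 and 1.46 in the mesentery. The groups did not overlap for either gene. Their omental levels were close in naive mice and apart at 7 d, when Clec4e was the higher. The log2 difference between the tissues at the 3 times was 1.80, 2.31 and 1.85 for Clec4d and 1.27, 2.81 and 2.92 for Clec4e.

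Dectin-1 was among the more abundant receptors of the omental libraries. Clec7a (chr6:129411611-129422790) was at 55.4 FPKM in naive, 213.6 in 24 h and 82.0 in 7 d omental macrophages and at 14.0, 17.8 and 17.5 in the mesenteric ones. The mesenteric values lay close together and all omental values above them, with ratios of the tissues of 3.97, 12.0 and 4.69. By rank, Clec7a was the fourth, second and first of the 10 in the omentum at the 3 times.

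Both receptors with inhibitory motifs were higher in the omentum. Clec4a2 (chr6:123056446-123094017) was at 14.9, 51.6 and 13.4 FPKM in naive, 24 h and 7 d omental macrophages and at 2.53, 3.84 and 2.20 in the mesenteric ones. Clec12a (chr6:129292709-129315321) was at 35.0, 110.8 and 50.8 FPKM in the omentum and at 11.4, 16.3 and 13.5 in the mesentery. Neither gene overlapped between the tissues, and the ratio at 24 h was 13.4 for Clec4a2 and 6.78 for Clec12a.

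Clec4a1 and Clec4a3 are relatives of Clec4a2 without its inhibitory motif. Clec4a3 (chr6:122902533-122919893) was at 90.1, 231.5 and 62.4 FPKM in naive, 24 h and 7 d omental macrophages and at 26.2, 44.4 and 19.3 in the mesenteric ones. Clec4a1 (chr6:122871866-122884637) was at 32.7, 73.1 and 15.2 FPKM in the omentum and at 9.09, 12.5 and 6.60 in the mesentery. Clec4a3 was first or second of the 10 in every library. Clec4a1 came close to overlap, its lowest omental value of 15.2 FPKM lying just above its highest mesenteric value of 12.5.

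Clec10a, the galactose-binding receptor MGL1 often used to mark alternatively activated macrophages, was at 88.6 FPKM in naive, 136.5 in 24 h and 61.5 in 7 d omental macrophages and at 10.3, 28.4 and 9.21 in the mesenteric ones. Its ratio of the tissues was 8.58, 4.81 and 6.68 and the groups did not overlap. Its near copy Mgl2 was at 127.4, 149.6 and 57.4 FPKM in the omentum and at 2.25, 4.54 and 3.38 in the mesentery, log2 differences of 5.31, 4.76 and 3.74.

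**Figure D2:**
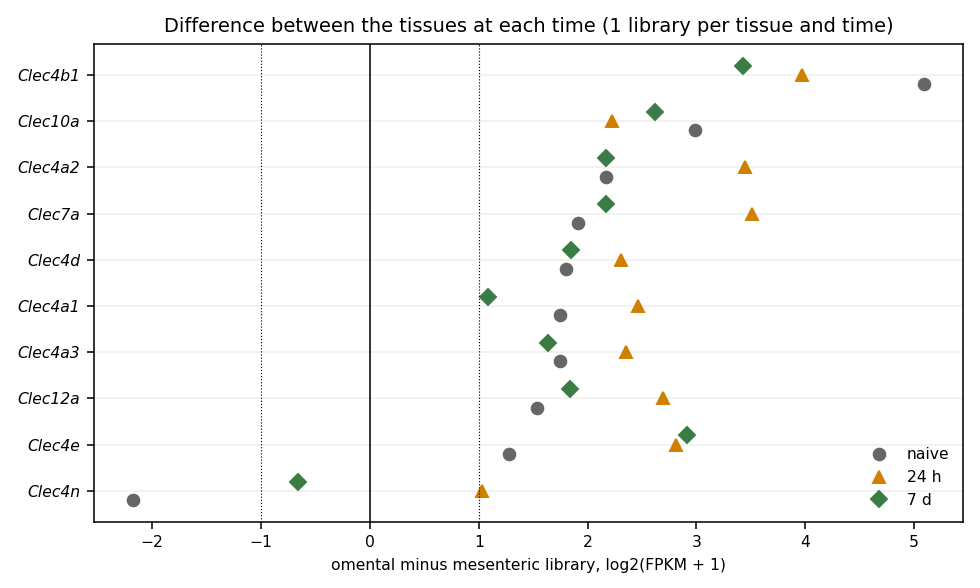
Difference in log2(FPKM + 1), omental minus mesenteric library, for each receptor gene in naive mice (grey circles), at 24 h (orange triangles) and at 7 d (green diamonds), 1 library per tissue and time; dotted lines mark a 2-fold difference. Clec4b1 lies furthest to the right, at 5.09 in naive mice, and Clec4n has points on both sides of 0, from -2.18 to 1.03.

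A higher level in the omentum was not general in these clusters. Clec4a4, which encodes a second inhibitory receptor and lies between Clec4a3 and Clec4b1, was at 2.07, 0.790 and 1.16 FPKM in naive, 24 h and 7 d omental macrophages and at 5.78, 8.39 and 7.39 in the mesenteric ones. Clec1b, which encodes CLEC-2, the receptor for podoplanin, was at 0.806, 0.250 and 0.255 FPKM in the omentum and at 9.37, 21.2 and 13.5 in the mesentery. Both were at least 2-fold lower in every omental library than in any mesenteric library. Clec9a, which encodes a dendritic cell receptor for dead cells, was at 3.99, 1.82 and 1.77 FPKM in the omentum and at 4.14, 7.18 and 4.26 in the mesentery. The dendritic cell markers were mixed, with 1, 1 and 1 of 7 at least 2-fold higher and 2, 4 and 3 lower in the omentum at the 3 times. Clec1a, Clec1b and Clec9a overlap one another in the annotation, so some of their reads cannot be told apart. The list of 9 neighbours, of which 6 were expressed, also held Clec2d and Cd69, which are not among the cluster genes placed above. Of it 0, 1 and 1 were at least 2-fold higher and 3, 4 and 2 lower in the omentum at the 3 times. The higher one was Olr1, which lies next to Clec7a. It was at 0.702, 8.26 and 1.78 FPKM in the omentum and at 0.207, 0.683 and 0.183 in the mesentery, with log2 differences of 0.50, 2.46 and 1.23. Clec2d was among the lower ones in naive mice (-1.02) and at 24 h (-2.00). Over all expressed genes 8.18%, 13.9% and 14.1% were higher and 8.05%, 10.2% and 4.99% lower.

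**Figure D3:**
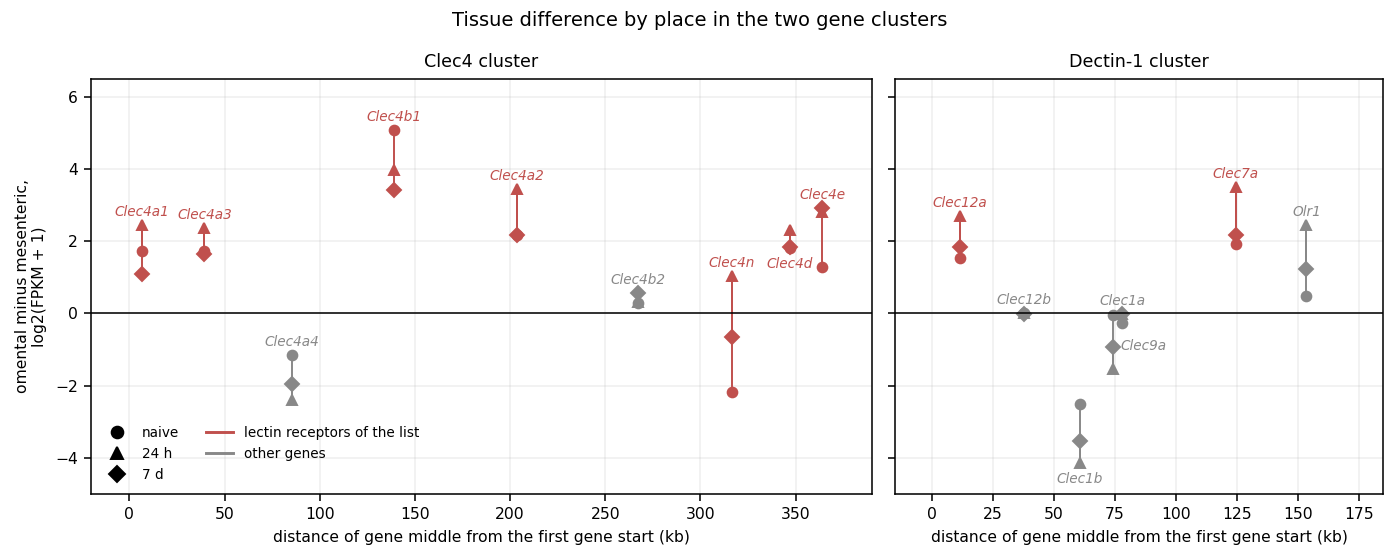
Difference in log2(FPKM + 1), omental minus mesenteric library, against the distance in kb from the first gene start of the Clec4 cluster (left) and the Dectin-1 cluster (right), for the listed receptors (red) and the other genes there (grey) in naive mice (circles), at 24 h (triangles) and at 7 d (diamonds). Clec4a4, whose 3 points all lie below -1, stands between Clec4a3 and Clec4b1, which are higher in the omentum. The 3 points of Clec1b also lie below -1, and its neighbours Clec12b, Clec1a and Clec9a have no point above 0.

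The next question was how the receptors differed after ID8 injection. In the omentum 8 of the 10 genes were at least 2-fold higher at 24 h than in naive mice and 0 lower, where 18.3% of expressed genes were at least 2-fold apart, 11.9% higher and 6.45% lower. The log2 difference was 3.84 for Clec4n, a ratio of 16.1, then 2.02 for Clec4e, 1.93 for Clec7a, 1.73 for Clec4a2, 1.63 for Clec12a, 1.35 for Clec4a3, 1.31 for Clec4d and 1.13 for Clec4a1. Clec10a, at 0.62, and Clec4b1, at 0.08, were under 2-fold. The median of the 10 was 1.49. The macrophage markers were higher as well, 8 of 8 at least 2-fold with a median log2 difference of 2.46, and so were all 10 neutrophil markers in the table, with a median of 1.29. When the libraries were rescaled to the 8 macrophage markers, 1 receptor (Clec4n) was still at least 2-fold higher at 24 h, with a log2 difference of 1.55, and 3 (Clec4a1, Clec4b1 and Clec10a) were at least 2-fold lower. Whether the receptors differed for another reason than the macrophage markers was not tested.

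By 7 d the omental receptors had separated. Against naive mice Clec4e and Clec4n were at least 2-fold higher, with log2 differences of 1.40 and 1.37, and Clec4b1 and Clec4a1 at least 2-fold lower, with -1.63 and -1.06, where 12.9% of expressed genes were at least 2-fold apart (11% higher and 1.96% lower). Clec7a and Clec12a, at 0.56 and 0.52, and the other 4, between -0.59 and -0.14, were under 2-fold. Against 24 h 9 of the 10 were at least 2-fold lower at 7 d and 0 higher (11.5% of expressed genes apart, 7.03% higher and 4.52% lower), and Clec4e, at -0.62, was the exception. The 8 macrophage markers were all at least 2-fold lower over the same interval, and with the libraries rescaled to them 0 receptors were at least 2-fold lower, 4 were higher and all 10 differences were positive. The summed neutrophil markers were 17989 FPKM at 24 h and 19873 at 7 d. By gene, 4 of the 10 were at least 2-fold lower at 7 d and 0 higher, with a median log2 difference of -0.41. These comparisons share libraries with each other and with the tissue comparisons, so their values are not independent.

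In the mesentery the receptors differed less between times. At 24 h 2 of the 10, Clec10a and Clec4b1, were at least 2-fold higher than in naive mice, with log2 differences of 1.38 and 1.19, where 4.32% of expressed genes were at least 2-fold apart, 2.8% higher and 1.52% lower. These are the 2 genes that were under 2-fold in the omentum. The other 8 lay between 0.33 and 0.81. At 7 d 0 of the 10 were at least 2-fold apart from naive mice (2.79% of expressed genes were, 0.498% higher and 2.29% lower) and the median was -0.15. From 24 h to 7 d 4 of the 10 were at least 2-fold lower and 0 higher (5.37% of expressed genes apart, 1.84% higher and 3.54% lower): Clec10a at -1.53, Clec4d at -1.45, Clec4b1 at -1.17 and Clec4a3 at -1.16. Macrophage markers were again higher at 24 h, 6 of 8 at least 2-fold with a median of 1.33. All 10 receptors had their highest level at 24 h in both tissues, an order that 33.6% of expressed genes had among the omental and 36% among the mesenteric libraries. With libraries scaled to a common sum, Clec4b1 was lower at 24 h than in naive mice in the omentum, at -0.12, and Clec7a higher at 7 d than at 24 h in the mesentery, at 0.07. Rescaled to the macrophage markers, 9 of the 10 in the omentum and 7 in the mesentery were lower at 24 h than in naive mice.

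**Figure D4:**
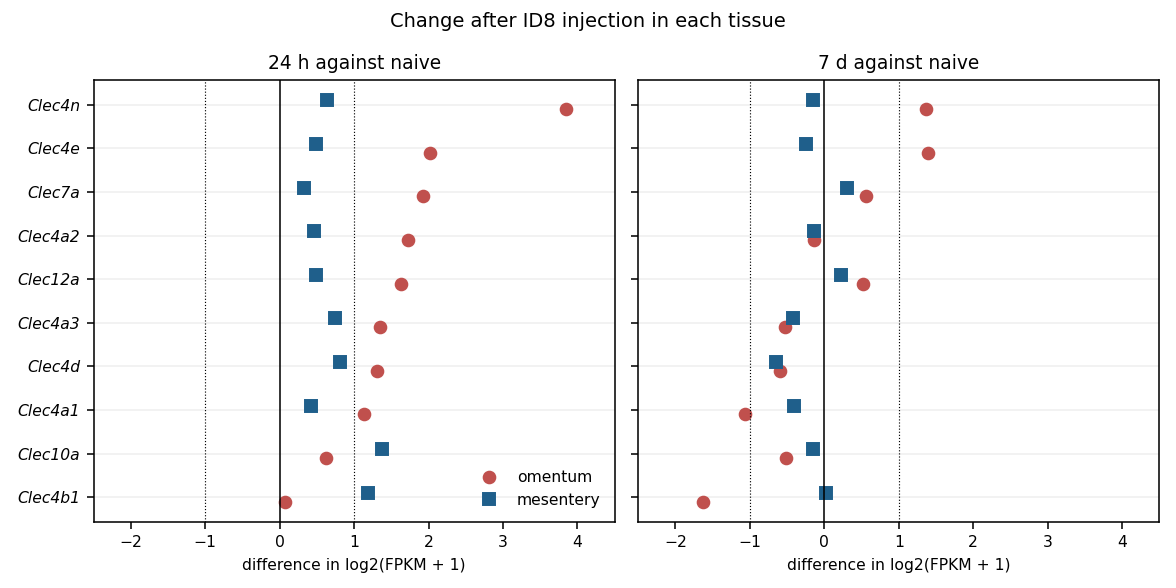
Difference in log2(FPKM + 1) at 24 h (left) and 7 d (right) against naive mice, for each receptor gene in the omentum (red circles) and the mesentery (blue squares), 1 library per condition; dotted lines mark a 2-fold difference. At 24 h all points lie above 0 and Clec4n in the omentum is furthest, at 3.84; at 7 d the omental points run from -1.63 to 1.40 and the mesenteric points from -0.64 to 0.30.

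The genes through which these receptors signal differed in both directions. Fcer1g, the adaptor of the Clec4 receptors, was at 893.8, 2889 and 708.9 FPKM in naive, 24 h and 7 d omental macrophages and at 923.7, 1015 and 509.4 in the mesenteric ones, so that its level was similar between the tissues in naive mice, where most receptors were apart. Syk was at 180.5, 59.4 and 86.3 FPKM in the omentum and at 54.3, 52.8 and 56.5 in the mesentery. It was thus lower at 24 h, the omental library in which the receptors were highest, than in the naive one, with a log2 difference of -1.59. Card9 was at 1.65, 5.77 and 2.90 FPKM in the omentum and at 3.46, 6.76 and 2.72 in the mesentery. Of 21 signalling genes, all expressed, 3 were at least 2-fold higher in the omentum at 24 h than in naive mice (Fcer1g, Tyrobp and Card9) and 4 lower (Syk, Malt1, Nfkb1 and Nfatc1), with a median log2 difference of -0.21. Over all expressed genes 11.9% were higher and 6.45% lower in that comparison, so the 3 of 21 higher are near the background. The 4 of 21 lower are a larger share than among all expressed genes. B cell markers were lower in the same step, 4 of 4 at least 2-fold with a median of -2.07 and a sum of 3958, 902.7 and 2442 FPKM in naive, 24 h and 7 d omental macrophages, and their part in the values of Syk and Nfatc1 was not tested. Between the tissues 4, 1 and 0 of the 21 were at least 2-fold higher in the omentum in naive mice, at 24 h and at 7 d (8.18%, 13.9% and 14.1% of expressed genes), and 0 lower.

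Genes known to respond to these receptors, and to many other signals, were mostly higher in the omentum. The list holds cytokine and chemokine genes and also Ptgs2, Nos2, Egr2 and Egr3. Of 16 on the list 13 were expressed, and 8, 10 and 11 were at least 2-fold higher and 1, 0 and 0 lower in the omental library in naive mice, at 24 h and at 7 d, where 8.18%, 13.9% and 14.1% of expressed genes were higher. Cxcl2, which attracts neutrophils, was at 52.0, 261.5 and 71.7 FPKM in the omentum and at 0.402, 1.45 and 0.271 in the mesentery. Il1b was at 111.8, 249.4 and 163.0 FPKM in the omentum and at 21.7, 20.5 and 12.2 in the mesentery. At 24 h 6 of the 13 were at least 2-fold higher and 1, Egr3, lower in the omentum than in naive mice (11.9% and 6.45% of expressed genes). Other lectins of myeloid cells varied: of 10 on the list 9 were expressed, and 4, 5 and 4 were at least 2-fold higher and 1, 2 and 1 lower in the omentum at the 3 times, beside the same shares of expressed genes. Among them Clec5a was at 4.23, 26.7 and 9.76 FPKM in the omentum and at 2.07, 1.59 and 1.65 in the mesentery, and the mannose receptor Mrc1 at 20.8, 50.5 and 7.13 and at 5.46, 18.5 and 8.60.

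**Figure D5:**
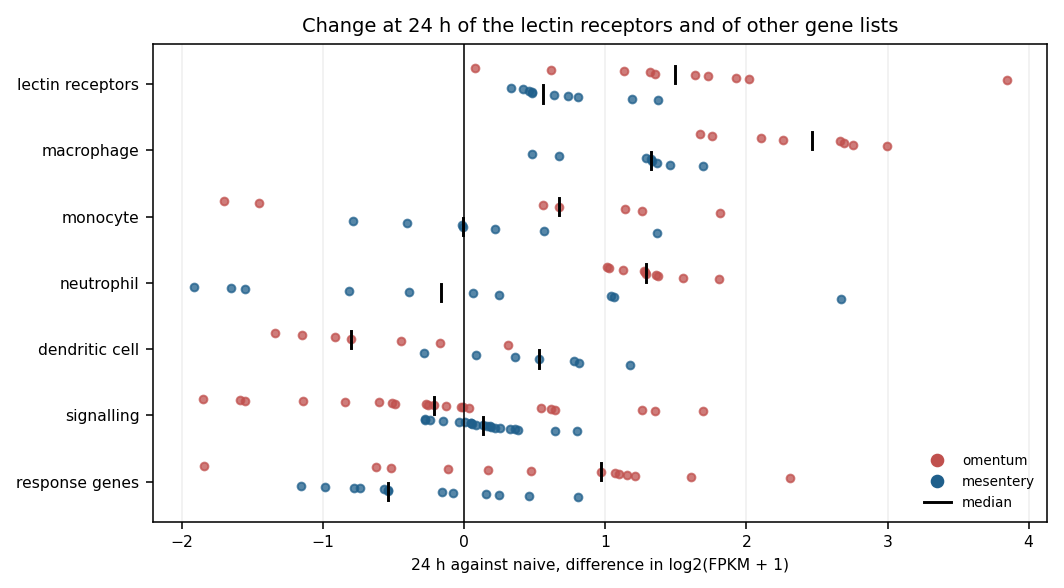
Difference in log2(FPKM + 1) between 24 h and naive mice for each expressed gene of 7 lists, in the omentum (red) and the mesentery (blue), with black bars at the medians. In the omentum the medians were 1.49 for the lectin receptors, 2.46 for macrophage and 1.29 for neutrophil markers and -0.21 for signalling genes; in the mesentery the receptors had 0.56 and the macrophage markers 1.33.

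The patterns of the receptors over the 6 libraries were compared with those of the 7998 genes that reached 10 FPKM in any library, by the root mean square difference of log2(FPKM + 1) after the mean of each gene was removed. Clec4a3 and Clec4d were each other's nearest gene, at 0.097, followed for both by Metrnl (0.118 and 0.194) and Clec4a1 (0.205 and 0.253). In the mesentery Clec4d lay at 0.257 to 2.43 FPKM, where the added 1 narrows differences. As ratios of FPKM, omentum to mesentery in naive mice, at 24 h and at 7 d, Clec4d had 6.06, 6.57 and 13.7. Clec4a3 had 3.43, 5.21 and 3.23. The search was not repeated with another added value. Clec4a1 was nearest to Pilrb1 (0.130), Metrnl and Clec4a3. Clec7a was nearest to Tlr2 (0.143), Ccrl2 and Ang, and Clec12a, from the same cluster, to Timp2 (0.167), Tlr2 and Plxnb2. Clec4e was nearest to Trem1 (0.167), Gprc5a and Klra2, Clec4a2 to Msr1 (0.227), Mmp9 and Ang, and Clec10a to Emilin2 (0.180), Cxcl13 and Ifitm2. Clec4n had Tmem86a (0.263), Pla2g7 and Cxcl16, and Clec4b1 had C4b (0.292), Mgl2 and Mir1938. Clec4b1 and Clec4n of the Clec4 cluster were the pair of receptors least alike, at 2.65.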

How the data were processed

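RNA of sorted macrophages was measured in 6 libraries, 1 per tissue and time, and grouped by the titles and disease states in the labels. Per the submitters' processing notes, reads were checked with FastQC 0.11.4 and aligned to NCBI37/mm9 with STAR 2.4.2a. The authors then computed FPKM with Cufflinks and a UCSC annotation and deposited them by gene symbol. The library preparation is described as standard, and strand is not given in the sources used here.

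Libraries were set against each other in pairs as log2(FPKM + 1). Software was numpy 2.4.6, pandas 2.3.3 and matplotlib 3.10.9 under Python 3.11.15. The pseudocount understates differences of low genes. A gene with an FPKM of at least 1 in any library was called expressed, and a difference of at least 2-fold was counted, the size of change also used in the methods of the study. The 6 log2 values of all expressed genes were also fitted with limma 3.58.1 in R 4.3.3 with tissue and time as additive terms, a trend in the prior variance and Benjamini-Hochberg adjustment. No other comparison was tested, since within a tissue each time has 1 library. FPKM are not counts, and no count test was run. The depth is not given by the table. Estimated from the step between low FPKM values, and so roughly, it was 0.707 to 1.23 times that of the naive mesenteric library, and the FPKM of a library summed to 526887 to 713863. The computations were tested on simulated data. Gene positions, overlaps and shared windows of 75 bases came from the GENCODE annotation of NCBI37, which is not the annotation behind the FPKM, and promoter windows from RefSeq.

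The receptors, gene lists and markers were chosen with earlier results of these data known. Named were all 10 receptors with their 3 nearest genes, up to 6 genes per list with the largest difference among those at 10 FPKM or more, and the adaptors, sort markers and paralogs. Olr1, Clec9a, Clec1a and Clec12b were named for their place in the Dectin-1 cluster, and Clec2d and Cd69 as further genes of the neighbour list. One marker of the macrophage list is not reported here and was left out of every value of that list.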

Additional observations from a re-analysis of the deposited data

Results flagged for a closer look

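For 3 receptors the difference between 7 d and naive mice had opposite signs in the 2 tissues. On the log2(FPKM + 1) scale Clec4b1 was at -1.63 in the omentum and 0.02 in the mesentery, -1.66 apart. Clec4e was at 1.40 and -0.25, 1.64 apart. Clec4n was at 1.37 and -0.15, 1.52 apart. The mesenteric values are small, so that the sign there is that of a small difference between 2 libraries.

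For Clec4n the difference between omentum and mesentery also changed sign with time. It was -2.18 in naive mice and 1.03 at 24 h, -3.21 apart, and then -0.66 at 7 d, 1.69 below the value at 24 h. Rescaled to the macrophage markers the difference was -2.74, -0.65 and -0.51, without a change of sign. None of these 5 contrasts between differences was tested, because each condition has 1 library.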

How the results depend on the processing

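Of 360 log2 differences of the receptors recomputed with a pseudocount of 0.1 or 5, median-ratio scaling or scaling to a sum of 1000000, 342 moved by less than a factor of 1.5, 18 moved more (4 with 0.1, 14 with 5) and 0 of the differences of at least 2-fold changed sign. Under these settings, other folds and other filters on low values, the number of receptors at least 2-fold apart changed by more than 1.5 times in time comparisons and in none between the tissues. At 3-fold it was 5 for 24 h against naive and 1 for 7 d against naive in the omentum, and 0 for 24 h against naive and 0 for 7 d against 24 h in the mesentery. At 1.5-fold the mesenteric counts were 5 for 24 h against naive, 1 for 7 d against naive and 8 for 7 d against 24 h. With a pseudocount of 5 they were 1 for 24 h against naive and 2 for 7 d against 24 h, and with 0.1 it was 1 for 7 d against naive.

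Scaling to a common sum moved the median of all genes to -0.19 and -0.27 between the tissues in naive mice and at 24 h, and in the omentum to -0.17 for 24 h against naive, 0.12 for 7 d against naive and 0.36 for 7 d against 24 h. Clec4b1 at 24 h against naive in the omentum then turned negative. The share of 2-fold calls over all genes that were higher went from 50.4% to 38.6% and from 57.6% to 41.2% between the tissues, from 64.9% to 50.4% and from 60.9% to 81.8% for the omental 24 h and 7 d steps, and from 64.8% to 49.4% and from 34.2% to 46.1% for the mesenteric ones.

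Rescaling to the 8 macrophage markers was chosen after seeing the data. The count of receptors at least 2-fold apart became 4 between the tissues at 24 h, 4 for 24 h against naive and 4 for 7 d against 24 h in the omentum, and 0 and 1 for the same steps in the mesentery. Of the differences of at least 2-fold, signs turned for Clec4n between the tissues at 24 h (-0.65), in the omentum at 24 h against naive for Clec4a1 (-1.16), Clec4a2 (-0.53), Clec4a3 (-0.99), Clec4d (-0.76), Clec4e (-0.15), Clec7a (-0.41) and Clec12a (-0.68), and at 7 d against 24 h for Clec4a1 (0.47), Clec4a2 (0.77), Clec4a3 (0.86), Clec4b1 (0.99), Clec4d (0.48), Clec4n (0.23), Clec7a (1.37), Clec10a (1.59) and Clec12a (1.60). Among smaller differences Clec4b1 (-2.24) and Clec10a (-1.71) at 24 h against naive and Clec4e (1.96) at 7 d against 24 h turned in the omentum, and so did 7 of 10 at 24 h against naive in the mesentery, Clec4a1 (-0.69) among them. The cause was not tested. Under each scaling 9 receptors had all omental values above all mesenteric ones. Rescaled to the macrophage markers, the remaining receptor, Clec4n, had all omental values below all mesenteric ones.

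With unit-variance scaling in the search for similar genes, Clec4a2 and Clec4n shared 0 of their 3 nearest genes with the list given, and Clec4b1, Clec4e, Clec10a and Clec12a shared 1. In the limma model, which pairs the tissues by time, 9 receptors passed. After rescaling to the macrophage markers 4 did, with an error pooled over genes. The count was 6 without the time term, 8 with a pseudocount of 5 and 9 under the other settings. Depth limits the low values, Clec4d and Clec4b1 in the mesentery above all.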
